A study of Mus musculus with 15 samples.

Results

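Control heart and control liver of the mouse were compared on 6 of the 15 arrays of a study of transplanted organs, 3 arrays for each organ, and none of the 9 allograft arrays was used. Each array was hybridised with Cy3-labelled total RNA of 1 tissue sample that had been kept in RNAlater. The members of both groups are fixed by their labels, which give the tissue as heart or as liver and the state as normal and number the samples 1 to 3. The labels name no allele, agent or age for a control and give its time nowhere, although the names of the deposited data of all 6 controls carry a tag that reads as syngeneic, day 5. The study used male mice of the inbred strains B10.BR, B10.D2, C57BL/10 and CBA, took the hearts for its cardiac grafts from C57BL/10 and the livers for its hepatic grafts from B10.BR, and did not tie a strain to a control sample in the sources used here. The methods call the control groups normal tissue in their account of the samples, whereas their account of the PCR refers to syngeneic grafts on day 5, and the results and legends speak of isografts or syngeneic grafts, that is organs grafted between mice of the same strain. Organ, strain and surgical history therefore cannot be told apart for these groups, and they are called heart controls and liver controls below. The 3 heart controls lay on the same slide, liver controls 1 and 2 shared another and liver control 3 lay on a further slide. Each slide thus held 1 organ only, so slide cannot be told apart from organ either. A fit with slide as a random block cannot part them, and it is given below where it moves a count by more than 1.5 times. The methods give 3 mice per time point for the PCR measurements of the study, but the labels do not tie an array to an animal, so the tests measure the spread between these samples. The measurement is the processed signal of a probe, taken to the log2 scale and quantile normalized over the 6 arrays, and this is what "level" means below. A level belongs to its probe and was never set against the level of another probe.

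The heart is built mostly of striated muscle cells that are few in number but large, and its other cells are endothelial cells of a dense capillary bed, fibroblasts, pericytes and resident macrophages. Each beat starts with calcium release from the sarcoplasmic reticulum and ends with calcium uptake, and most of the ATP for it comes from mitochondrial oxidation of fatty acids, lactate and ketone bodies. The liver is built mostly of hepatocytes, which make most plasma proteins and bile acids, release glucose, dispose of ammonia as urea and modify drugs by cytochrome P450 enzymes. Its capillaries are sinusoids lined by a fenestrated, scavenging endothelium, with Kupffer cells inside the vessel and retinoid-storing stellate cells behind it.

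In total 32186 genes were tested, of which 18172 carried a RefSeq symbol. With limma's moderated test and Benjamini-Hochberg adjustment over all probes at 0.05, 7828 genes (24.3%) were called higher in the heart controls and 7780 (24.2%) higher in the liver controls. A stricter rule, which also asks for a difference of at least 8-fold, left 1879 genes (5.84%) for heart and 1664 (5.17%) for liver. These 4 percentages are the background for every count of list members below. Measured list members all carry a RefSeq symbol, and the shares among the 18172 genes with one were higher. They were 31.2% for heart and 27.1% for liver, with 1484 and 1181 genes called and at least 8-fold. A list share near these figures is close to that of genes at large. The median log2 difference of heart minus liver over all genes was -0.10. The balance of the split depends on the scaling. Before normalization the 75th percentile of a heart array was 1021 to 1247 and that of a liver array 92.1 to 225.8 (processed signal, linear scale), and with each array scaled to it in place of quantile normalization the median over all genes fell to -1.02 and heart took 26.7% of the calls against 50.2% here, at a background of 19% for heart and 52% for liver. Between 68.8% and 70.5% of the probes were well above background on a heart array and between 52.6% and 57.0% on a liver array. Heart arrays correlated with each other at 0.991 to 0.994 over all probes, liver arrays at 0.956 to 0.974 and arrays of different organs at 0.802 to 0.832. The median SD of a gene over 3 arrays was 0.16 for heart and 0.40 for liver.

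Some arrays stood apart from the others of their organ, and the counts and calls most affected by leaving one of them out are given below. Heart control 2 was far below the other hearts for atrial transcripts and for several transcripts typical of liver and fat. Heart control 3 held transcripts of the exocrine pancreas. Liver control 1 was lower than the other livers for macrophage transcripts. On all 6 arrays the labelled organ was borne out by its defining genes. All 5 measured markers of hepatocytes were called higher in liver and all 7 of heart muscle cells higher in heart, while Cps1 and Serpina1a had no probe with a RefSeq match. Xist was not above background on any array, and the Y-linked genes Ddx3y and Eif2s3y were well above background on all 6, as male mice have it.

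**Figure D1:**
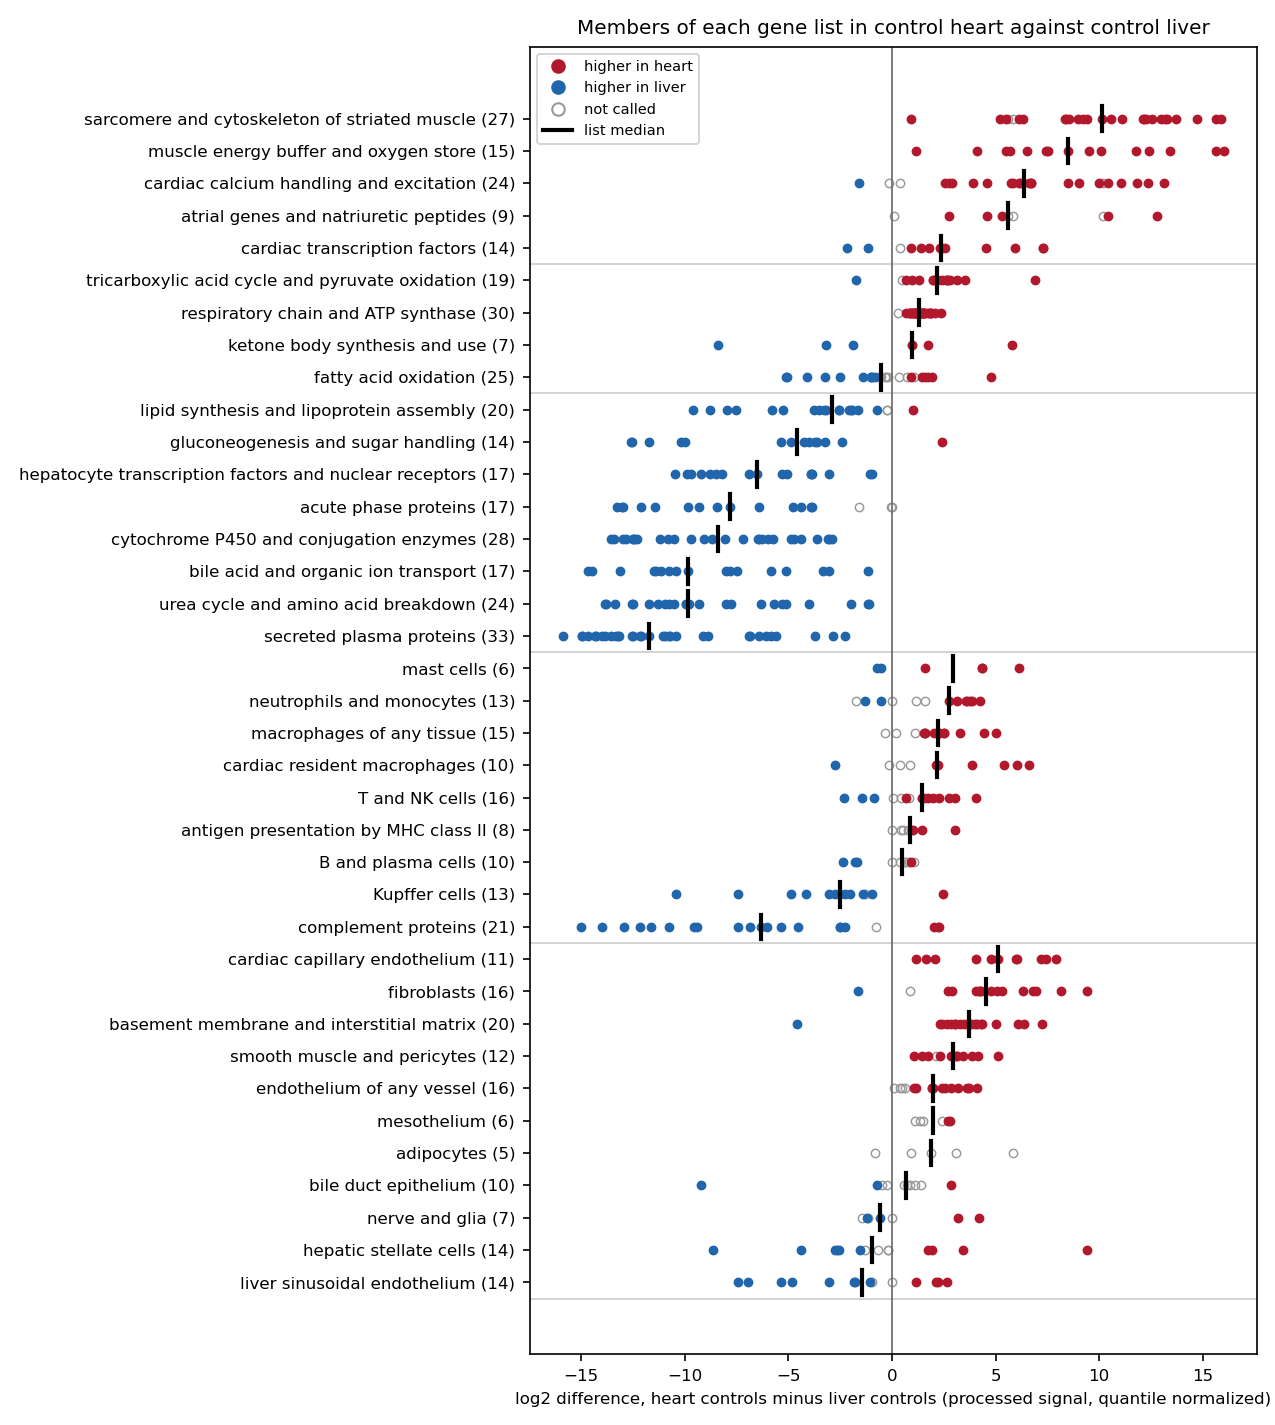
Log2 difference of heart controls minus liver controls for the measured members of each gene list (number in brackets), 1 point per gene on its brightest probe (the fitted difference, also where the text gives a bound), with black bars for the list medians and colours for genes called by limma with Benjamini-Hochberg adjustment. The medians run from 10.13 for the sarcomere list to -11.73 for the secreted plasma proteins, and the fatty acid oxidation, T cell and stellate cell lists hold calls on both sides.

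The 10 named genes with the largest difference towards heart were Mb, Myom2, Ckmt2, Myl2, Myh6, Xirp2, Apobec2, Myh8, Actn2 and Myh4. They code for myoglobin, for proteins of the contractile apparatus and its disc, for mitochondrial creatine kinase and for a striated muscle member of the APOBEC family. Mb, the oxygen store of muscle, had levels of 18.03, 18.12 and 18.03 in the heart controls and 1.62, 1.42 and 3.07 in the liver controls. The heart arrays lay close to the upper end of the scale, and on the liver arrays the probe was not well above background, so the log2 difference of 16.02 ± 0.46 (SE) is read as a bound of at least 15430-fold in heart (limma adjusted p = 1.29e-05). Such a bound sets the mean of the bright organ against the dimmest signal that still counted as well above background on the arrays of the other organ. The order is that of the fitted differences, but none of the 10 probes was well above background in liver, so no order is read from it, and the bounds of the other 9 lay between at least 1453-fold (Actn2) and at least 16340-fold (Myl2). On the signed log2 scale used below, such a bound is written as at least for heart and as at most for liver. The Myh4 and Myh8 probes belong to skeletal muscle myosins whose sequences are close to those of the cardiac forms Myh6 and Myh7, and whether they read the cardiac transcripts was not tested. Myh4 and Myh8 each had 2 probes, of which only 1, the brightest, was called higher in heart and 0 higher in liver. Their bounds thus rest on a probe that the other probe of the gene did not bear out. The Myh1 and Myh2 probes of the same family were at 3.62, 3.68 and 3.60 and 2.02, 2.64 and 2.08 on the heart arrays, below the liver arrays. Those heart levels all lay under the dimmest signal well above background on the liver arrays. That signal was 3.91 to 4.38 on the liver arrays and 2.23 to 2.45 on the heart arrays.

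The 10 with the largest difference towards liver were Ces1c, Alb, Mug1, Serpina3k, Cyp2a5, Mbl2, Plg, Fgb, Akr1c6 and Fga. Of these, 8 code for proteins secreted into plasma and Cyp2a5 and Akr1c6 for enzymes of drug and steroid metabolism. Ces1c, a carboxylesterase that mice secrete into plasma, had levels of 1.04, 1.22 and 1.04 in the heart controls and 17.23, 17.38 and 17.30 in the liver controls. Its bound was at least 32430-fold in liver (limma adjusted p = 1.4e-06). Of the others, Serpina3k and Fgb were well above background on at least 1 heart array and differed by -15.47 and -14.95, and the bounds of the remaining 7 ran from at least 11660-fold (Fga) to at least 49550-fold (Alb).

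**Figure D2:**
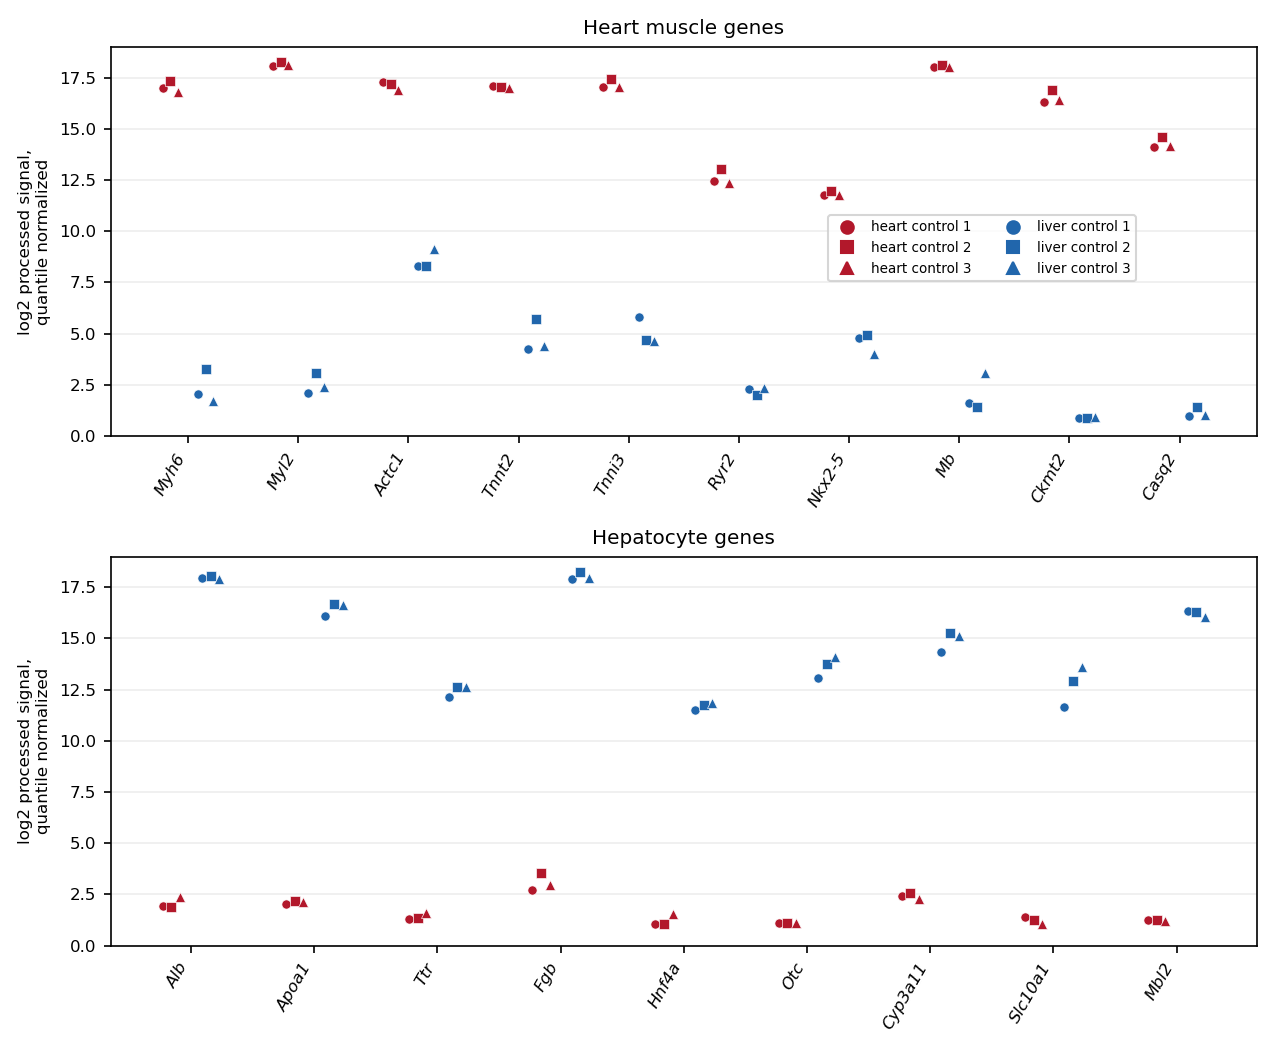
Level (log2 processed signal, quantile normalized) of 10 heart muscle genes and 9 hepatocyte genes on each of the 6 arrays, red for heart and blue for liver, with a symbol for each replicate. No gene shown has overlapping organs, and many of the low values lie where the probe was not well above background.

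The sarcomere is the repeating unit of actin and myosin filaments that shortens when muscle contracts. Of the 27 measured members of the list for the sarcomere and cytoskeleton of striated muscle, 25 were called higher in heart (background 24.3%), 24 of them at least 8-fold (background 5.84%), and 0 higher in liver. The median log2 difference was 10.13, against -0.10 over all genes. List medians in the text are of fitted differences, and with bounded members at their bound they became 9.67 for this list, 4.81 for calcium handling, 7.53 for the energy buffer of muscle, 1.08 for T and NK cells, 4.79 for cardiac capillaries, -10.96 for secreted plasma proteins, -7.87 for cytochrome P450 genes and -8.65 for bile acid transport, while those of the other lists discussed moved by less than 0.3. Among thick filament genes, the adult cardiac myosin heavy chain Myh6 had levels of 16.99, 17.32 and 16.82 in the heart controls and 2.06, 3.26 and 1.72 in the liver controls. Its log2 difference was 14.70 ± 0.43 (SE), with a bound of at least 7625-fold (limma adjusted p = 1.4e-05). Myh7, the slow myosin heavy chain that dominates before birth in the mouse, was also high in heart, at 16.71, 17.88 and 17.45, with heart control 1 the lowest of the 3 and a bound of at least 8298-fold over liver. Whether the Myh7 probe also reads the transcript of its close relative Myh6 was not tested, so this level may not be that of Myh7 alone. The ventricular regulatory light chain Myl2 reached 18.06, 18.25 and 18.12 in heart against 2.09, 3.06 and 2.40 in liver, a bound of at least 16340-fold. Mybpc3, cardiac myosin-binding protein C, was at 17.97, 18.16 and 17.93 in the heart controls and 6.18, 5.82 and 5.68 in the liver controls, and unlike the preceding genes it was well above background on the liver arrays too, so that its difference of 12.13 ± 0.17 (SE) is a measured one (limma adjusted p = 1.74e-06).

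Thin filament genes behaved alike. The troponin genes Tnnt2, Tnni3 and Tnnc1, whose products switch contraction on with calcium, had log2 differences of 12.26, 12.14 and 10.13. Tnni1, the slow skeletal troponin I that the fetal heart uses, had heart levels of only 5.26, 5.14 and 5.81 and a difference of 0.94 ± 0.26 (SE), called but the smallest of the list. Cardiac actin, Actc1, was at 17.30, 17.18 and 16.89 in the heart controls and 8.29, 8.32 and 9.14 in the liver controls. All 3 heart arrays lay far above all liver arrays, with a difference of 8.54 ± 0.28 (SE) (limma adjusted p = 1.93e-05), and skeletal actin Acta1 differed by 9.22. Genes of the Z disc and M band that anchor the filaments followed, with differences of 12.96 for Tcap, at least 11.12 for Myoz2, at least 10.505 for Actn2, at least 10.26 for Myom1 and at least 13.14 for Myom2. The giant spring protein gene Ttn had levels of 13.74, 14.27 and 13.43 in the heart controls and 3.44, 2.93 and 3.38 in the liver controls, a bound of at least 813.3-fold. Ankrd1, a muscle ankyrin repeat protein induced by stretch, was even on the heart arrays at 17.02, 16.97 and 16.90 and spread from 1.14 to 7.77 in liver. The 2 members not called were Myl4 and Myl7, the atrial light chains taken up below.

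The promoters of these genes are shown because they carry a sequence that muscle genes are known for. The CArG box is bound by serum response factor, and of 33 promoter windows of 24 sarcomere genes (250 bases before to 50 after a RefSeq start) 8 (24.2%) held a match on either strand, against 1.63% of all 32851 windows of this length in the mouse. Of the windows of genes at least 8-fold higher in heart, 3.14% held it. Windows of the same gene with nearby starts share sequence. The windows of Actc1 (GRCm38.p6, chr2:114052826-114053125, minus strand) and Myl3 (chr9:110763428-110763727, plus strand) read as follows from 5′ to 3′, with the match in capitals, 47 and 85 bases before the start.
Actc1: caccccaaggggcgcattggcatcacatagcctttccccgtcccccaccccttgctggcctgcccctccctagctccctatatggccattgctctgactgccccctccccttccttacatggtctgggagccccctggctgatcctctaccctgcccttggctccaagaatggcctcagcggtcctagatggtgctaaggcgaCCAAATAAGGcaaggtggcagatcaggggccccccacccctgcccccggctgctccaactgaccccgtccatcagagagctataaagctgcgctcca
Myl3: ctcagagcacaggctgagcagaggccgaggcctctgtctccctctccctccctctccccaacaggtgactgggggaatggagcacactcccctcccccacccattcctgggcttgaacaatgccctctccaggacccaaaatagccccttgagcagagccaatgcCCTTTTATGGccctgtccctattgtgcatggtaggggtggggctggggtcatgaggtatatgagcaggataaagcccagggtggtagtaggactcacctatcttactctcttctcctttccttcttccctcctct
Myl3, the ventricular essential light chain, had levels of 13.07, 14.05 and 13.22 in the heart controls and 8.03, 7.56 and 8.27 in the liver controls and a difference of 5.49 ± 0.33 (SE). The M-CAT element (CATTCC, either strand), known from cardiac troponin and myosin genes, was in 33.3% of the sarcomere windows and in 14.7% of all windows. A match says only that these letters lie in the window, and no binding was measured. The windows of genes for the respiratory chain held no TATA box (TATAAA, either strand), which 13.6% of all windows held.

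Genes for calcium handling and excitation also stood mostly on the heart side. Of 24 measured, 20 were called higher in heart, 17 of them at least 8-fold, and 1 higher in liver, with a median log2 difference of 6.39. Within the sarcoplasmic reticulum, the calcium store, Casq2 (calsequestrin, which buffers calcium) was at 14.10, 14.60 and 14.16 in the heart controls and 0.97, 1.43 and 1.04 in the liver controls. This is a bound of at least 1127-fold in heart, and its neighbours in the release unit, Hrc, Trdn and Ryr2 (the release channel), had bounds of at least 1328-fold, at least 868.4-fold and at least 360.2-fold. The uptake pump Atp2a2, which other tissues use as well, was measured on all arrays at 15.43, 15.73 and 15.41 in the heart controls and 9.27, 8.33 and 8.82 in the liver controls, a difference of 6.72 ± 0.27 (SE) (limma adjusted p = 3.62e-05), and its inhibitor Pln differed by 11.03. At the surface membrane, the calcium channel subunits Cacna1c and Cacnb2 differed by at least 3.88 and at least 3.99, the gap junction gene Gja1 by 5.85 and the exchanger Slc8a1 by 3.93. The pacemaker channel genes went differently. Hcn4, the main channel of the sinoatrial node, was at 5.46, 5.43 and 5.32 in heart and higher, at 7.28, 6.72 and 7.06, in liver (difference -1.62 ± 0.17 (SE), limma adjusted p = 0.00108), and Hcn2 had overlapping organs with a difference of -0.15 ± 0.40 (SE) (limma adjusted p = 0.783). Fxyd1, a regulator of the sodium pump, differed by 0.39 ± 0.18 (SE) (limma adjusted p = 0.124).

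Transcription factors that specify heart muscle showed smaller differences than the contractile genes, with 11 of 14 called higher in heart, 2 higher in liver and a median of 2.34. Nkx2-5, the homeobox factor of the cardiac lineage, was at 11.77, 11.99 and 11.75 in the heart controls and 4.76, 4.91 and 3.99 in the liver controls (difference 7.28 ± 0.27 (SE), limma adjusted p = 2.99e-05). Tbx5 was at 9.48, 8.06 and 9.03 in heart, a bound of at least 26.09-fold, Myocd, the cofactor of serum response factor, had a bound of at least 20.24-fold, and Tbx20 differed by 4.54. Srf itself, which all cells use, differed by 2.56, and Mef2c, Mef2a and Hand2 by 2.32, 0.93 and 2.42. Gata4, a zinc finger factor of both organs, had levels of 5.84, 6.004 and 5.52 in the heart controls and 4.99, 5.81 and 5.48 in the liver controls with overlap and a difference of 0.36 ± 0.26 (SE) (limma adjusted p = 0.295), whereas its relative Gata6 differed by 2.37. Called towards liver were Tbx3 and Hand1. Tbx3, a repressor that acts in the conduction system and that hepatocyte precursors also use, was at 9.02, 9.28 and 9.13 in the heart controls and 11.98, 10.75 and 11.22 in the liver controls. The Hand1 probe was not well above background on any array. The Hand1 call was lost with slide as a random block and with each array but liver control 1 left out in turn.

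On the atrial list the heart arrays disagreed. Of 9 measured members 5 were called higher in heart and 0 higher in liver, and 8 and 0 without heart control 2. Natriuretic peptide A, the hormone of the atrium, was even on the heart arrays, with Nppa at 18.25, 18.06 and 18.06 in the heart controls and 5.15, 5.50 and 5.29 in the liver controls and a difference of 12.81 ± 0.14 (SE) (limma adjusted p = 1.57e-06), and Nppb was at 15.37, 15.98 and 15.40 in heart. The Nppa levels of the hearts lay close to the upper end of the scale, where a difference between arrays may not show. Sarcolipin, Sln, an inhibitor of the calcium pump found in atrial muscle, was at 16.003, 3.12 and 16.01 in the heart controls and 0.96, 2.62 and 0.99 in the liver controls. Heart control 2 thus lay with the livers while heart controls 1 and 3 lay far above. The atrial regulatory light chain Myl7 showed the same split, at 15.97, 5.34 and 15.80 in heart and 7.09, 6.77 and 5.73 in liver, and so did the atrial essential light chain Myl4, at 15.29, 7.97 and 15.15 and 7.16, 7.40 and 7.10. With all arrays these 3 genes missed the threshold, with limma adjusted p of 0.0729, 0.172 and 0.077. Without heart control 2 their differences became 14.39, 9.42 and 8.05, with limma adjusted p of 0.0003, 0.000514 and 7.71e-05. Mybphl, an atrial myosin-binding protein picked after its values were seen, followed at 11.21, 2.38 and 11.14 in heart. Of the other members, Gja5, the connexin of atrium and conduction system, was at 9.95, 8.11 and 9.45 with heart control 2 the lowest, and Kcnj3, a subunit of the acetylcholine-gated potassium channel, was even at 5.69, 5.50 and 5.92. How much atrium each heart sample held is not given in the sources used here, and its part in these values was not tested.

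Energy metabolism separated the organs in a graded way. All 15 measured members of the list for the energy buffer and oxygen store of muscle were called higher in heart, 14 of them at least 8-fold, with a median of 8.47. Creatine kinase moves phosphate from mitochondria to the filaments. Its mitochondrial form Ckmt2 was at 16.30, 16.92 and 16.40 in the heart controls and 0.89, 0.88 and 0.92 in the liver controls, a bound of at least 5376-fold, and its muscle form Ckm at 12.47, 13.82 and 12.92 in heart and 7.54, 3.19 and 3.05 in liver, where liver control 1 lay above the others. The brain form Ckb differed least of the list, by 1.18. Fabp3, the fatty acid carrier of heart muscle, was at 17.15, 17.22 and 17.22 in the heart controls and 5.11, 4.59 and 4.66 in the liver controls, a measured difference of 12.41 ± 0.17 (SE) (limma adjusted p = 1.72e-06).

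Muscle and liver use different genes for many of the same reactions. In 26 pairs, a member was named the muscle form and the other the liver form when the pairs were chosen. Each form was compared by itself on its own probe. The names are labels and do not mean that a form is confined to that organ, and the counts rest on them. The muscle form was called higher in heart in 22 pairs and the liver form higher in liver in 16, and both held in 12. Both forms were called in fatty acid-binding protein and in glucose and glycogen handling. Against Fabp3, the liver carrier Fabp1 was at 0.97, 2.05 and 5.38 in the heart controls and 17.13, 17.40 and 17.07 in the liver controls. Heart control 3 was the highest heart for Fabp1, and the difference was -14.40 ± 1.15 (SE) (limma adjusted p = 0.000386). The insulin-regulated glucose transporter Slc2a4 was at 13.28, 13.74 and 13.28 in heart and 2.43, 4.93 and 3.17 in liver, and the liver transporter Slc2a2 at 1.92, 1.72 and 1.89 and 11.49, 12.03 and 11.98, differences of 9.93 and at most -9.51. Muscle glycogen phosphorylase Pygm and liver Pygl differed by at least 7.39 and -3.74, and the glycogen synthases Gys1 and Gys2 by at least 3.84 and at most -11.77.

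In glycolysis the form named for liver was often not called. The muscle hexokinase Hk2 and the muscle aldolase Aldoa differed by 5.62 and 4.16, and the pyruvate kinases Pkm and Pklr by 4.54 and -4.90, in opposite directions. For phosphofructokinase, Pfkm differed by 4.12 while Pfkl, at 10.72, 10.69 and 10.52 in the heart controls and 10.31, 10.71 and 10.52 in the liver controls, differed by 0.13 ± 0.15 (SE) (limma adjusted p = 0.508). For enolase the values were 6.53 for Eno3 and 0.30 for Eno1 (limma adjusted p = 0.515), for phosphoglycerate mutase 10.11 for Pgam2 and -0.28 for Pgam1 (limma adjusted p = 0.217), and for lactate dehydrogenase 7.39 for Ldhb and 0.30 for Ldha (limma adjusted p = 0.201). The kinase that makes the fructose bisphosphate activating glycolysis was the reverse case, since Pfkfb1 differed by -4.26 and the heart form Pfkfb2, at 7.12, 7.68 and 7.35 in the heart controls and 7.995, 7.44 and 7.08 in the liver controls, by -0.12 ± 0.29 (SE) (limma adjusted p = 0.757). Of the phosphorylase kinase subunits, Phkg2 was higher in liver by -1.41 and Phkg1 differed by 1.78 ± 0.77 (SE) with a probe that was not well above background in liver (limma adjusted p = 0.113).

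For the mitochondrial proteins the pattern was again a large difference of the muscle form over a shared form. The adenine nucleotide translocator Slc25a4 was at 17.76, 17.68 and 17.82 in the heart controls and 11.33, 12.22 and 12.68 in the liver controls and Slc25a5 at 15.41, 15.26 and 15.33 in the heart controls and 14.49, 15.21 and 15.54 in the liver controls. The first differed by 5.68 ± 0.36 (SE) (limma adjusted p = 0.000165) and the second by 0.25 ± 0.29 (SE) with overlapping organs. The cytochrome oxidase subunits went the same way, with Cox6a2, Cox7a1 and Cox8b at 11.77, 7.53 and at least 11.46 and their partners Cox6a1, Cox7a2 and Cox8a at -0.41, 0.98 and -0.42. Of these partners Cox8a was called higher in liver and Cox7a2 higher in heart, the only liver form of the 26 called that way. The muscle adenylate kinase Ak1 differed by 7.45, and adenylosuccinate synthases Adssl1 and Adss by 1.50 and -0.22.

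Among the pairs of lipid and amino acid metabolism, carnitine palmitoyltransferase, which admits fatty acids to mitochondria, split into Cpt1b at 5.51 and Cpt1a at -3.15. The lipases of the vessel wall, Lpl and Lipc, differed by 5.96 and at most -7.73, the liver glutaminase Gls2 by -9.32, and the glucose-6-phosphatases G6pc3 and G6pc by 1.85 and -10.20. The liver G6pc, which releases free glucose into blood, was spread on the liver arrays at 15.02, 11.98 and 13.12. Fatty acid transport protein broke the pattern, because the muscle form Slc27a1 was called higher in liver by -1.12 alongside the liver form Slc27a5, which also activates bile acids and differed by at most -13.91. Acetyl-CoA carboxylase Acaca was higher in liver by -2.003 while Acacb, whose product restrains fatty acid entry into mitochondria, differed by 0.02 ± 0.46 (SE) with overlap (limma adjusted p = 0.979), and the coactivators Ppargc1a and Ppargc1b differed by 1.60 and -0.16.

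**Figure D3:**
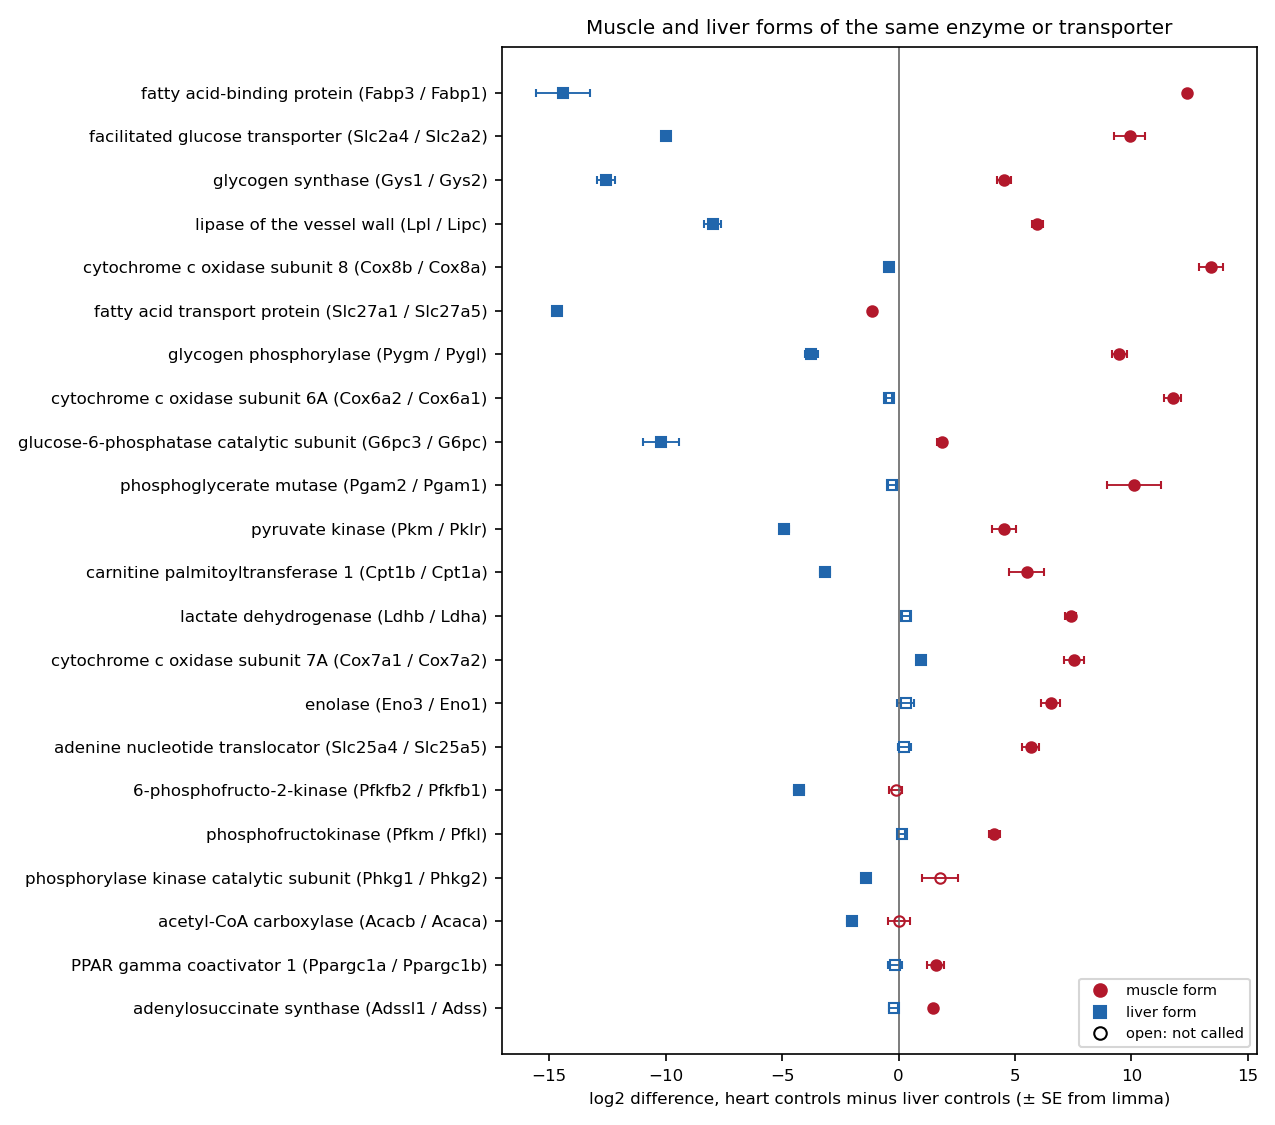
Log2 difference of heart controls minus liver controls for the muscle form (red circle) and the liver form (blue square) of 22 of the 26 enzymes, subunits and transporters, with the SE of the limma fit over 3 arrays per organ and open symbols where the form was not called. Where the probe was not well above background in 1 organ the fitted difference is plotted, and the text gives the bound. The muscle form lies to the right of 0 in most pairs, and several liver forms lie near 0.

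Mitochondrial oxidation itself differed less than these organ-specific forms. Of 30 measured genes of the respiratory chain and ATP synthase, 29 were called higher in heart, 0 of them at least 8-fold and 0 higher in liver, with a median of 1.32. Cytochrome c, Cycs, had the largest difference of the list, with levels of 15.82, 16.15 and 16.07 in the heart controls and 13.27, 13.73 and 13.93 in the liver controls and a difference of 2.37 ± 0.21 (SE) (limma adjusted p = 0.00057). The ATP synthase gene Atp5c1 differed by 1.89, the complex I gene Ndufs1 by 1.83 and the complex II gene Sdha by 1.01. The calls of this list depend on the scaling, since with 75th percentile scaling 9 were called higher in heart and 1 higher in liver, and the median was 0.38 against -1.02 over all genes. Relative to that median the list stood on the heart side under both scalings.

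The tricarboxylic acid cycle and pyruvate oxidation had 17 of 19 genes called higher in heart, 1 higher in liver and a median of 2.16. Pdk4, the kinase that shuts pyruvate dehydrogenase when fat is burned, stood out with 13.90, 14.61 and 14.70 in the heart controls and 8.65, 6.51 and 7.38 in the liver controls and a difference of 6.89 ± 0.59 (SE) (limma adjusted p = 0.000475). Citrate synthase Cs differed by 2.70, and the subunits of NAD-dependent isocitrate dehydrogenase Idh3a, Idh3b and Idh3g by 3.52, 2.40 and 2.24. The succinyl-CoA ligase subunits ran in opposite directions, with the ATP-forming Sucla2 higher in heart by 1.29 and the GTP-forming Suclg2 at 9.73, 10.60 and 9.87 in heart and 11.24, 11.95 and 12.16 in liver. With 75th percentile scaling 13 of the 19 were still called higher in heart.

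Genes of fatty acid oxidation were called in both directions. Of 25 measured, 6 were called higher in heart (24%, background 24.3%) and 10 higher in liver (40%, background 24.2%), with a median of -0.54. The heart share was thus near that of all genes and below the 31.2% of genes with a RefSeq symbol, for which the liver share was 27.1%. Towards heart were Cd36, the fatty acid translocase of the plasma membrane, at 13.45, 14.20 and 13.94 in the heart controls and 9.04, 9.15 and 9.03 in the liver controls with a difference of 4.79 ± 0.21 (SE), and the mitochondrial enzymes Acadl, Hadhb, Decr1 and Acadm at 1.91, 1.73, 1.45 and 0.93. Towards liver were the peroxisomal enzymes Acaa1b, Ehhadh and Acaa1a, at -5.13, -5.07 and -2.53, and Ppara, the nuclear receptor that induces them, at 8.13, 8.74 and 8.38 in the heart controls and 12.58, 12.77 and 12.18 in the liver controls (difference -4.09 ± 0.23 (SE), limma adjusted p = 0.000123). The mitochondrial genes Acads, Acaa2, Hadh and Cpt2 were also called towards liver, at -1.42, -1.02, -0.97 and -0.81. Among the genes not called was the mitochondrial Acadvl, at -0.32 ± 0.24 (SE) (limma adjusted p = 0.321). With 75th percentile scaling the counts were 5 and 15, without heart control 3 they were 3 and 6, and with slide as a random block 4 and 7.

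Ketone bodies are made in liver and used elsewhere. Of 7 measured genes of their synthesis and use, 3 were called higher in heart and 3 higher in liver, with a median of 0.95. With 75th percentile scaling, and likewise with slide as a random block, the counts were 2 and 3. Bdh1, which makes hydroxybutyrate from acetoacetate and back, was at 10.40, 11.08 and 10.72 in the heart controls and 14.25, 13.68 and 13.77 in the liver controls (difference -3.17 ± 0.25 (SE), limma adjusted p = 0.000349). Oxct1, the enzyme that activates acetoacetate for use and that hepatocytes are known to lack, was at 15.76, 16.18 and 15.83 in the heart controls and 9.32, 10.68 and 10.42 in the liver controls (difference 5.78 ± 0.39 (SE), limma adjusted p = 0.000211). Acat1 and the monocarboxylate carrier Slc16a1 were higher in heart by 0.95 and 1.72.

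On the liver side, all 33 measured genes for secreted plasma proteins were called higher in liver (background 24.2%), 31 of them at least 8-fold (background 5.17%), with a median of -11.73. Albumin, Alb, the main protein of plasma, was at 1.96, 1.88 and 2.37 in the heart controls and 17.97, 18.03 and 17.88 in the liver controls. The probe was not well above background on the heart arrays, and the bound of at least 49550-fold was the largest of the genes named here (limma adjusted p = 1.4e-06). Of the fibrinogen chains, which form the clot, Fgb was at 2.72, 3.53 and 2.97 in the heart controls and 17.88, 18.25 and 17.93 in the liver controls, Fga had a bound of at least 11660-fold and Fgg differed by -13.86. Apolipoprotein genes followed, with Apoa1 at 2.01, 2.20 and 2.14 in the heart controls and 16.12, 16.68 and 16.65 in the liver controls and bounds of at least 18350-fold for Apoa1 and at least 8590-fold for Apoc3, and a difference of -13.25 for Apoa2. The thyroid hormone carrier Ttr had a bound of at least 1134-fold, and the haem carrier Hpx differed by -13.58. The smallest differences of the list were those of C3, Igf1 and Cp, which other tissues also make. C3 was at 16.25, 15.51 and 15.65 in the heart controls and 18.03, 18.09 and 18.12 in the liver controls, a difference of -2.28 ± 0.22 (SE) (limma adjusted p = 0.000733).

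Promoter windows of these genes are shown because they hold sequences known from genes of the hepatocyte. The motif GTTAAT (either strand), known from promoters of liver genes, was in 9 of 31 windows of 28 plasma protein genes (29%) and in 7.1% of all windows, and the C/EBP motif TTGCNNAA (either strand) in 45.2% of these windows, 64.3% of 14 windows of acute phase genes and 10.8% of all windows. The HNF4 motif CAAAGTCC (either strand) was in 0 of the plasma protein windows and in 3.93% of the windows of genes at least 8-fold higher in liver, against 1.42% of all windows. Windows of Alb (GRCm38.p6, chr5:90460620-90460919, plus strand) and Fgb (chr3:83049814-83050113, minus strand) have GTTAAT or its complement in capitals, 32 and 29 bases before the start, and that of the acute phase gene Saa2 (chr7:46751583-46751882, plus strand) has the C/EBP motif in capitals, 183 bases before it.
Alb: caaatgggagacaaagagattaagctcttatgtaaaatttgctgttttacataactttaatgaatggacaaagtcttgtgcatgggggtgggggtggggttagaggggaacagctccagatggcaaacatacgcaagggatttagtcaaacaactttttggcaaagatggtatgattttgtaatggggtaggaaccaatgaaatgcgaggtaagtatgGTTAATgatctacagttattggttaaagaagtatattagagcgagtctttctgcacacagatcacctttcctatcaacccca
Fgb: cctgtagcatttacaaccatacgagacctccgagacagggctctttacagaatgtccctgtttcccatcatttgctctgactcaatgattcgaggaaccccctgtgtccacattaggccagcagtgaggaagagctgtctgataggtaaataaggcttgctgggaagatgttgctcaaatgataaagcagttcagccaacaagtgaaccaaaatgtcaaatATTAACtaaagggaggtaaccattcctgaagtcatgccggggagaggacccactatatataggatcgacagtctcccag
Saa2: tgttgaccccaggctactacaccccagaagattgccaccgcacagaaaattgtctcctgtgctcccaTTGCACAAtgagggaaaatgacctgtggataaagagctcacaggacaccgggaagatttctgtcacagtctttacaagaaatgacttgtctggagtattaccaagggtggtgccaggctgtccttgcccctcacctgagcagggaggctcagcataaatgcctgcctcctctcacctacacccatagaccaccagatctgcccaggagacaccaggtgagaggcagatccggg
All windows are from RefSeq on GRCm38.p6, and 468 of the 620 measured list genes had at least 1.

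Acute phase proteins rise in plasma during inflammation. Of 17 measured, 14 were called higher in liver, 0 higher in heart, with a median of -7.81 that became -5.91 without heart control 2. Serum amyloid A genes were near the top of the scale on every liver array, with Saa2 at 18.09, 17.97 and 18.0004 and Saa1 at 18.16, 18.12 and 18.25. On the heart arrays Saa2 was at 5.37, 4.23 and 4.56 and Saa1 at 12.17, 10.06 and 13.05, heart control 2 being the lowest for both, and Saa3, the form that macrophages and fat also make, was at 12.64, 10.31 and 13.48 in the heart controls and 16.22, 16.66 and 16.74 in the liver controls. These probes belong to near-identical genes, and so do those of the orosomucoid genes Orm1, Orm2 and Orm3, at -13.02, -12.14 and -11.43, so that single members are uncertain. Haptoglobin Hp, which binds free haemoglobin, was at 14.38, 12.66 and 13.28 in the heart controls and 18.06, 18.16 and 18.44 in the liver controls, and lipocalin Lcn2 at 11.02, 12.45 and 13.44 in liver, spread over more than the heart arrays at 8.04, 8.37 and 8.97. The metallothioneins Mt1 and Mt2, which bind zinc and copper, were not called, with differences of -0.05 ± 0.29 (SE) and 0.01 ± 0.22 (SE) (limma adjusted p = 0.897 and 0.963). The iron hormone Hamp was at 7.98, 1.01 and 9.61 in the heart controls and 14.20, 14.65 and 15.11 in the liver controls, a difference of -8.46 ± 2.29 (SE) (limma adjusted p = 0.0284) that became -5.91 without heart control 2. The Hamp call was lost without heart control 1 or without any 1 of the liver arrays, with limma adjusted p from 0.0529 to 0.0828.

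Complement belongs to both the plasma and the macrophage side. Of 21 measured genes, 17 were called higher in liver and 3 higher in heart, with a median of -6.31. The terminal components C8a, C8b and C9, which build the membrane pore, had bounds of at least 7562-fold, at least 1783-fold and at least 685.3-fold in liver, and Hc (C5) was at 5.41, 4.88 and 5.28 in the heart controls and 16.82, 16.82 and 16.87 in the liver controls. The lectin pathway genes Mbl2 and Mbl1 had bounds of at least 15480-fold and at least 2873-fold. The exceptions were the 3 chains of C1q, which macrophages make, and C1qa was at 13.88, 13.45 and 13.78 in the heart controls and 9.94, 12.47 and 12.04 in the liver controls (difference 2.22 ± 0.69 (SE), limma adjusted p = 0.0446). With slide as a random block, without heart control 1 or without heart control 3, 0 members were called higher in heart and 17 higher in liver.

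All 24 measured genes of the urea cycle and amino acid breakdown were called higher in liver, with a median of -9.87. In the urea cycle itself, Otc had a bound of at least 2556-fold, while Ass1, Asl and Arg1, whose enzymes other tissues use to recycle or break down arginine, were well above background in heart too and differed by -7.78, -5.13 and -4.01. The enzymes of aromatic amino acid breakdown had low levels in heart. Hpd was at 1.40, 1.78 and 1.74 in the heart controls and 15.27, 15.52 and 15.61 in the liver controls, and Hpd and Hgd had bounds of at least 9055-fold and at least 3285-fold. Glul, glutamine synthetase, and Oat, which lie in the hepatocytes around the central vein, were the members with high levels in both organs, at 13.71, 14.09 and 14.11 in heart and 15.57, 14.97 and 14.84 in liver for Glul.

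Sugar handling was called higher in liver for 13 of 14 genes, with a median of -4.58. Gckr, a regulator of glucose use, was at 3.11, 2.88 and 2.51 in the heart controls and 15.83, 15.24 and 15.18 in the liver controls (difference -12.58 ± 0.25 (SE), limma adjusted p = 4.3e-06), and Khk, the first enzyme of fructose use, differed by -5.37. The exception was Ppp1r3c, a glycogen-targeting subunit of protein phosphatase, at 12.04, 12.24 and 11.79 in the heart controls and 10.43, 9.30 and 9.16 in the liver controls (difference 2.40 ± 0.38 (SE), limma adjusted p = 0.00422), whereas its relative Ppp1r3b was higher in liver by -2.43. Lipid synthesis and lipoprotein assembly had 17 of 20 genes called higher in liver and 1 higher in heart, with a median of -2.89. Lcat, which esterifies cholesterol in plasma, differed by -9.62 and the lipoprotein assembly gene Mttp by -5.28, while fatty acid synthase Fasn, at 12.20, 11.20 and 11.17 in the heart controls and 14.16, 14.56 and 13.52 in the liver controls, differed by -2.56 ± 0.40 (SE). Scd1, the desaturase, was uneven on the liver arrays at 16.09, 16.05 and 13.82. Me1, malic enzyme, was the member called higher in heart, at 0.99 ± 0.25 (SE) (limma adjusted p = 0.0229), a call lost without any 1 of the heart arrays, and Angptl4, an inhibitor of lipoprotein lipase made in both organs, was not called, at -0.27 ± 0.36 (SE) (limma adjusted p = 0.565).

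All 28 measured cytochrome P450 and conjugation genes were called higher in liver, 27 of them at least 8-fold, with a median of -8.40. Cyp3a25, Cyp2c29 and Cyp1a2, of families that oxidise drugs, had bounds of at least 4831-fold, at least 7574-fold and at least 2334-fold. Cyp7a1, the rate-limiting enzyme of bile acid synthesis, was at 8.57, 10.75 and 10.60 in liver, lowest in liver control 1, with a bound of at least 201.1-fold, and Cyp8b1, which sets the kind of bile acid, had a bound of at least 63.7-fold. Por, the reductase that feeds the microsomal P450 enzymes and is used in every tissue, had the smallest difference, at 12.45, 12.03 and 12.16 in the heart controls and 14.71, 14.93 and 15.64 in the liver controls (-2.88 ± 0.28 (SE), limma adjusted p = 0.000765). Cyp2e1, the ethanol-oxidising form, was at 9.32, 0.83 and 6.27 in the heart controls and 15.74, 15.98 and 16.30 in the liver controls, with heart control 2 far below the other hearts, and its difference of -10.54 became -8.28 without that array.

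Transport of bile acids and organic ions had 17 of 17 genes called higher in liver, with a median of -9.84. On the blood side of the hepatocyte, the uptake carriers Slc10a1 and Slco1b2 had bounds of at least 1364-fold and at least 16400-fold. On the bile side, the export pump Abcb11 was at 3.98, 4.80 and 4.57 in the heart controls and 16.14, 15.75 and 15.67 in the liver controls (-11.40 ± 0.26 (SE), limma adjusted p = 6.63e-06), Abcc2 and Abcg5 had bounds of at least 979.7-fold and at least 3932-fold, and Abcb4, which moves phospholipid, differed by -3.05. The regulators were called throughout, 17 of 17 higher in liver with a median of -6.52. Hnf4a, the central nuclear receptor of the hepatocyte, was at 1.06, 1.07 and 1.56 in the heart controls and 11.50, 11.76 and 11.86 in the liver controls, a bound of at least 670.3-fold (limma adjusted p = 3.44e-06). The forkhead factors Foxa2 and Foxa3 differed by -9.69 and at most -7.67, the bile acid receptor Nr1h4 by -6.92 and its target, the corepressor Nr0b2, by -3.87. Prox1, at -1.08, was among those that differed least.

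The resident immune genes did not run one way. In bulk RNA, fewer cells of a type and less RNA per cell cannot be told apart, here and for every cell type below. Of 15 measured genes common to macrophages, 11 were called higher in heart and 0 higher in liver, with a median of 2.22. Tyrobp, the signalling adaptor of myeloid receptors, was at 14.16, 13.59 and 14.15 in the heart controls and 9.27, 11.43 and 11.40 in the liver controls (difference 3.27 ± 0.65 (SE), limma adjusted p = 0.00961). Lyz2, lysozyme, differed by 4.42, Cd14, the lipopolysaccharide coreceptor, by 2.52 and Aif1 by 1.54. Csf1r, the receptor on which macrophages depend, was at 12.26, 11.84 and 12.05 in the heart controls and 9.60, 11.61 and 11.56 in the liver controls and was not called (difference 1.12 ± 0.59 (SE), limma adjusted p = 0.173). Liver control 1 was the lowest array for this gene as for most of the list, and without it the Csf1r difference was 0.46 and missed the threshold too (limma adjusted p = 0.0714). With slide as a random block, without heart control 1 or without heart control 3, 7 members were called.

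Kupffer cell genes ran the other way, with 11 of 13 called higher in liver, 1 higher in heart and a median of -2.50. Clec4f, the lectin by which rodent Kupffer cells are known, was at 2.43, 1.95 and 3.02 in the heart controls and 12.20, 13.32 and 13.17 in the liver controls (difference -10.43 ± 0.41 (SE), limma adjusted p = 3.58e-05). Cd5l and Marco, made by macrophages that scavenge in blood, differed by -4.86 and -4.14 and were well above background in heart, where heart control 2 was the lowest array at 9.76, 7.78 and 11.15 for Marco. The iron exporter Slc40a1 differed by -2.25 and the transcription factor Spic by -1.39. Adgre1, which codes for the F4/80 antigen of most mouse macrophages, was the member called higher in heart, at 13.99, 13.43 and 13.99 in the heart controls and 9.95, 12.03 and 12.05 in the liver controls (2.46 ± 0.63 (SE), limma adjusted p = 0.0237). It lost its call when any heart array was left out, with limma adjusted p from 0.0541 to 0.0787, and with slide as a random block.

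The list for cardiac resident macrophages had 6 of 10 genes called higher in heart, 1 higher in liver and a median of 2.17. F13a1, the A chain of factor XIII, was at 13.46, 13.35 and 13.51 in the heart controls and 6.25, 7.05 and 7.26 in the liver controls (6.59 ± 0.28 (SE), limma adjusted p = 4.68e-05), Cbr2 differed by 6.05 and the chemokine Pf4, which megakaryocytes make as well, by 5.40. Ccr2, the receptor of monocytes that enter the tissue, was at 10.77, 10.03 and 10.54 in the heart controls and 5.99, 7.20 and 6.55 in the liver controls, so it too was on the heart side (3.87 ± 0.37 (SE), limma adjusted p = 0.000691). Folr2 and Cd163, scavenger genes of resident cells, were not called, at 0.36 ± 0.63 (SE) and 0.85 ± 0.28 (SE) (limma adjusted p = 0.661 and 0.0507). Timd4, the phosphatidylserine receptor on the Kupffer list as well, was higher in liver by -2.74.

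**Figure D4:**
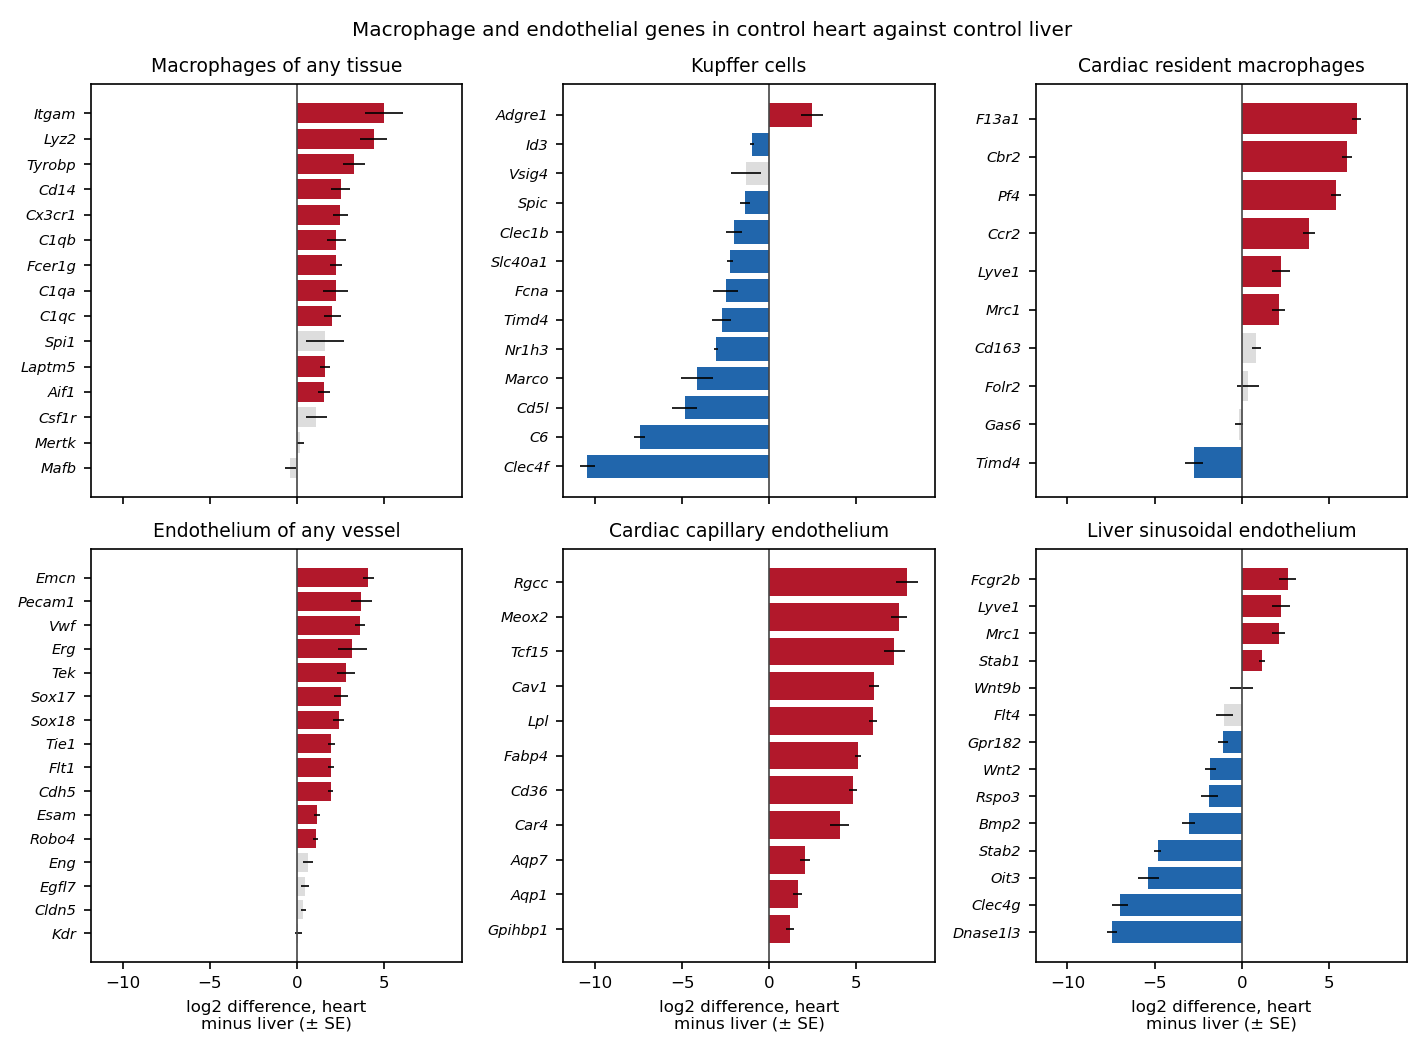
Log2 difference of heart controls minus liver controls (± SE from limma, 3 arrays per organ) for the measured genes of 3 macrophage and 3 endothelial lists, with red bars for genes called higher in heart, blue for genes called higher in liver and grey for genes not called. The Kupffer and sinusoidal lists lie mostly to the left, with Adgre1, Fcgr2b, Lyve1, Mrc1 and Stab1 to the right.

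MHC class II presents antigen on dendritic cells, macrophages and B cells. Of 8 measured genes, 3 were called higher in heart, 1 of them at least 8-fold, and 0 higher in liver, with a median of 0.85. The heart share of 37.5% was near the 31.2% of genes with a RefSeq symbol. H2-Aa was at 12.27, 11.98 and 12.26 in the heart controls and 8.16, 9.80 and 9.48 in the liver controls (3.02 ± 0.45 (SE), limma adjusted p = 0.0035) and the invariant chain Cd74 differed by 1.46. H2-Ab1, the partner chain of H2-Aa, was at 12.16, 11.73 and 12.03 in the heart controls and 11.15, 10.87 and 11.66 in the liver controls (0.75 ± 0.25 (SE), limma adjusted p = 0.055). These genes differ in sequence between the H-2 haplotypes of the strains the study used, and a probe can read haplotypes unequally, which was not tested. H2-Ea had no probe with a RefSeq match.

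Of 16 T and NK cell genes, 10 were called higher in heart and 3 higher in liver, with a median of 1.44. Cxcr6, a chemokine receptor of T and NK cells that stay in tissue, led at 10.73, 9.80 and 10.79 in the heart controls and 5.79, 7.04 and 6.38 in the liver controls (4.04 ± 0.43 (SE), limma adjusted p = 0.00102). The granule enzyme Gzma and the coreceptor gene Cd8a differed by 2.28 and at least 1.45. The chains of the T cell receptor complex did not move together, as Cd3g was higher in heart by 1.98, Cd3d was not called at 0.84 ± 0.36 (SE) (limma adjusted p = 0.106) and Cd3e was higher in liver, at 4.58, 5.25 and 4.66 in the heart controls and 7.005, 6.93 and 7.45 in the liver controls (-2.30 ± 0.25 (SE), limma adjusted p = 0.00111). Cd4 was likewise higher in liver, at 5.38, 5.39 and 5.50 against 3.79, 4.19 and 3.96. With 75th percentile scaling 7 and 3 were called, and with slide as a random block 6 and 3. Without heart control 1 the counts were 5 and 2, and without heart control 3 they were 6 and 3. B and plasma cell genes gave 1 call for heart (10%) and 3 for liver (30%, near the share of genes at large) among 10, with a median of 0.49. Heart control 3 was the highest array for Cd79b, at 8.47, 8.53 and 9.98, and for Ms4a1, at 6.84, 7.06 and 8.86. With 75th percentile scaling 5 were called higher in liver.

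Genes of neutrophils and monocytes had 7 of 13 called higher in heart and 2 higher in liver, with a median of 2.76. The alarmin S100a8 was at 11.86, 11.86 and 12.54 in the heart controls and 7.17, 9.46 and 8.86 in the liver controls (3.59 ± 0.63 (SE), limma adjusted p = 0.00627), Ly6c2 of inflammatory monocytes differed by 3.61 and Chil3, a chitinase-like protein of activated myeloid cells, was at 13.25, 12.18 and 14.82 in heart with control 3 the highest. Of the granule protein genes of the list, Camp was not called at 0.01 ± 0.37 (SE) (limma adjusted p = 0.98), nor was Ltf at -1.73 ± 0.65 (SE) (limma adjusted p = 0.078), and Mpo and Ngp were called higher in liver by -1.33 and -0.53. The calls of this list towards liver fell to 0 with slide as a random block and without heart control 1, heart control 2 or liver control 2. The mast cell proteases Cpa3, Cma1 and Mcpt4 were at 7.70, 6.70 and 7.38, 8.69, 7.62 and 8.16 and 7.17, 6.03 and 6.53 in heart, with bounds of at least 8.636-fold, at least 15.48-fold and at least 5.389-fold over liver. The list also had 2 small calls towards liver, Ms4a2, not well above background on any array, and Fcer1a at -0.53 ± 0.17 (SE), and both were lost with the replicate number as a block and without any 1 of the heart arrays, and 1 of them with slide as a random block.

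Vessels were described by 3 lists. Of 16 genes of any endothelium, 12 were called higher in heart and 0 higher in liver, with a median of 1.97. Emcn, endomucin of capillaries and veins, was at 13.69, 13.27 and 13.71 in the heart controls and 8.90, 9.93 and 9.55 in the liver controls (4.10 ± 0.30 (SE), limma adjusted p = 0.000291), and Vwf and Pecam1 differed by 3.63 and 3.70. Kdr, the main receptor for vascular endothelial growth factor, was not called, at 11.24, 11.31 and 10.84 in the heart controls and 10.85, 11.31 and 10.97 in the liver controls (0.09 ± 0.20 (SE), limma adjusted p = 0.737), and Cldn5, Egfl7 and Eng were not called either. All 11 measured genes of the cardiac capillary list were called higher in heart, with a median of 5.10. The transcription factor Meox2 and its partner Tcf15, which act together on fatty acid uptake in heart endothelium, had bounds of at least 47.46-fold and at least 25.74-fold, and the lipid carrier Fabp4 was at 16.48, 16.37 and 16.51 in the heart controls and 11.06, 11.50 and 11.51 in the liver controls. Lpl and Cd36 of this list are also made by muscle cells and fat.

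The sinusoidal list had 8 of 14 genes called higher in liver and 4 higher in heart, with a median of -1.44. Stab2, which clears hyaluronan from blood, was at 5.53, 5.56 and 5.54 in the heart controls and 9.97, 10.51 and 10.64 in the liver controls (-4.83 ± 0.20 (SE), limma adjusted p = 4.22e-05), the lectin Clec4g differed by -6.96, Dnase1l3 by -7.44 and Oit3 by -5.35. The growth signals for hepatocytes Bmp2 and Wnt2 were higher in liver by -3.05 and -1.80. The 4 called higher in heart were Fcgr2b, Lyve1, Mrc1 and Stab1, at 2.64, 2.24, 2.11 and 1.17. Macrophages are known to make all of these, and Lyve1 also marks lymphatic vessels. Stab1 was at 12.24, 11.72 and 11.80 in the heart controls and 10.74, 10.71 and 10.79 in the liver controls.

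Fibroblast genes had 14 of 16 called higher in heart and 1 higher in liver, with a median of 4.54. Postn, a matrix protein of the cardiac skeleton and of activated fibroblasts, was at 15.95, 15.61 and 16.04 in the heart controls and 8.56, 9.29 and 9.26 in the liver controls (6.83 ± 0.25 (SE), limma adjusted p = 2.96e-05). Mfap5 and Fap had bounds of at least 448.6-fold and at least 50.77-fold, the growth factor receptor Pdgfra differed by 4.03 and the collagens Col1a1, Col1a2 and Col3a1 by 4.30, 4.18 and 4.26. Tcf21, of cardiac fibroblasts and also of stellate cells, was not called (0.85 ± 0.40 (SE), limma adjusted p = 0.136). Fn1 ran towards liver, at 11.96, 10.85 and 11.72 in the heart controls and 12.69, 12.94 and 13.82 in the liver controls, fibronectin being a plasma protein of hepatocytes as well, and its call was lost with slide as a random block and without heart control 2, heart control 3, liver control 2 or liver control 3.

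Matrix genes repeated that pattern, with 19 of 20 called higher in heart, 15 of them at least 8-fold, 1 higher in liver and a median of 3.69. Lama2, the laminin chain around muscle fibres, had a bound of at least 38.06-fold, Col8a1 differed by 6.38 and fibrillin Fbn1 by 6.06, and basement membrane collagens Col4a1 and Col4a2 by 3.82 and 3.03. The exception, Col18a1, whose collagen gives rise to endostatin and which hepatocytes make, was at 11.34, 10.51 and 11.09 in the heart controls and 15.75, 15.52 and 15.46 in the liver controls (-4.60 ± 0.24 (SE), limma adjusted p = 9.61e-05). Smooth muscle and pericyte genes had 11 of 12 called higher in heart and a median of 2.95, with Acta2 at 3.88, Cnn1 at 5.10 and Notch3 at 4.16.

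Of 14 stellate cell genes, 4 were called higher in heart (28.6%, near the share of genes at large) and 6 higher in liver (42.9%), with a median of -0.99. Lrat, which esterifies retinol for storage, was at 4.69, 3.62 and 3.08 in the heart controls and 7.02, 8.63 and 8.95 in the liver controls (-4.40 ± 0.67 (SE), limma adjusted p = 0.00365), and Colec10 and Reln were higher in liver by -8.62 and -2.77. On the heart side were Des, the intermediate filament that muscle shares, at 9.39, and the pericyte genes Rgs5 and Pdgfrb, at 3.42 and 1.72. Bile duct genes gave 1 call for heart (10%) and 2 for liver (20%) among 10, shares below those of genes at large, and 1 each with slide as a random block. The call for heart was Spp1, osteopontin, which macrophages also make, at 15.89, 15.27 and 15.95 in the heart controls and 12.04, 12.98 and 13.49 in the liver controls (2.86 ± 0.42 (SE), limma adjusted p = 0.00337). The keratins of ducts and of the organ's covering, Krt7 and Krt19, overlapped, with Krt19 at 9.95, 7.85 and 10.13 in the heart controls and 7.56, 7.95 and 9.12 in the liver controls. Mesothelium is the cell layer over both organs. Of its 6 genes, 2 were called higher in heart (33.3%, near the share of genes at large) and 0 higher in liver. Heart control 2 was the lowest heart for all 6, for example at 11.01, 9.22 and 11.68 for Msln. Without heart control 2, and likewise without liver control 1, the count was 3, and with slide as a random block or without any 1 of the other arrays it was 1. Of 7 nerve and glia genes, 2 were called each way (28.6%, near the share of genes at large). The glial gene S100b was higher in heart by 4.17, and 1 of the liver calls was lost with slide as a random block and without any 1 of the heart arrays.

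None of the 5 measured adipocyte genes was called by limma, and 0 had an unadjusted p under 0.05 there. The study's own methods, a t-test and the SFC statistic, called 0 as well after Benjamini-Hochberg adjustment. SFC sets a difference of medians against the typical size of such organ differences among probes of like signal. SFC also called 0 on lists where limma called many, as given at the end, so its 0 says little here. The heart levels of the adipocyte genes differed by sample. Adiponectin, Adipoq, was at 11.47, 2.21 and 7.41 in the heart controls and 0.94, 0.93 and 1.69 in the liver controls. Heart control 1 was the highest, control 3 lay between and control 2 was near the liver level, and without control 2 the difference of 5.84 became 8.07 (limma adjusted p = 0.0114, against 0.0907 with all arrays). Plin1, of the fat droplet surface, and the secreted Retn had the same order on the heart arrays, at 7.51, 3.12 and 3.90 and 8.75, 1.52 and 3.84, and Cidec, which enlarges droplets, was at 10.98, 2.67 and 6.85 in heart and 8.05, 7.72 and 7.21 in liver.

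Transcripts of neighbouring tissue appeared on heart control 3. The pancreatic genes Cpa1, a carboxypeptidase, and Pnlip, the lipase, were at 2.72, 3.72 and 11.09 in the heart controls and 1.47, 3.31 and 3.06 in the liver controls and 2.14, 2.99 and 8.58 in the heart controls and 1.25, 1.18 and 1.15 in the liver controls, and neither was called with all arrays. Without heart control 3 the difference of Cpa1 was 0.56 (limma adjusted p = 0.546), and that of Pnlip was 1.20 and passed the threshold (limma adjusted p = 0.0336). Cela2a, a pancreatic elastase, differed by 0.69 with all arrays (limma adjusted p = 0.777) and by -1.24 without heart control 3 (limma adjusted p = 0.0262). The pancreatic genes Cpb1 and Reg2, picked after their values were seen, were at 2.80, 4.48 and 11.72 and 0.96, 2.72 and 12.76 on the heart arrays, so heart control 3 stood alone on all 4. Among the 20 named genes that varied most between the heart arrays, heart control 3 stood apart on the high side for 10, heart control 2 on the low side for 8 and heart control 1 on the high side for 2. Of the 14 measured genes of neighbouring tissues, 1 was called higher in heart (Myh4, above) and 6 higher in liver. The probes of 4 members were not well above background on any array. With the normexp background correction 4 were called higher in liver. With only probes well above background in 1 organ, 8 were measured and 4 called higher in liver. Liver transcripts on the heart arrays are described above with Saa1, Hamp and Cyp2e1, and Ahsg, fetuin, was at 12.01, 9.11 and 12.62 there against 17.80, 17.63 and 17.64 in liver. The part of surrounding tissue in these values was not tested.

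**Figure D5:**
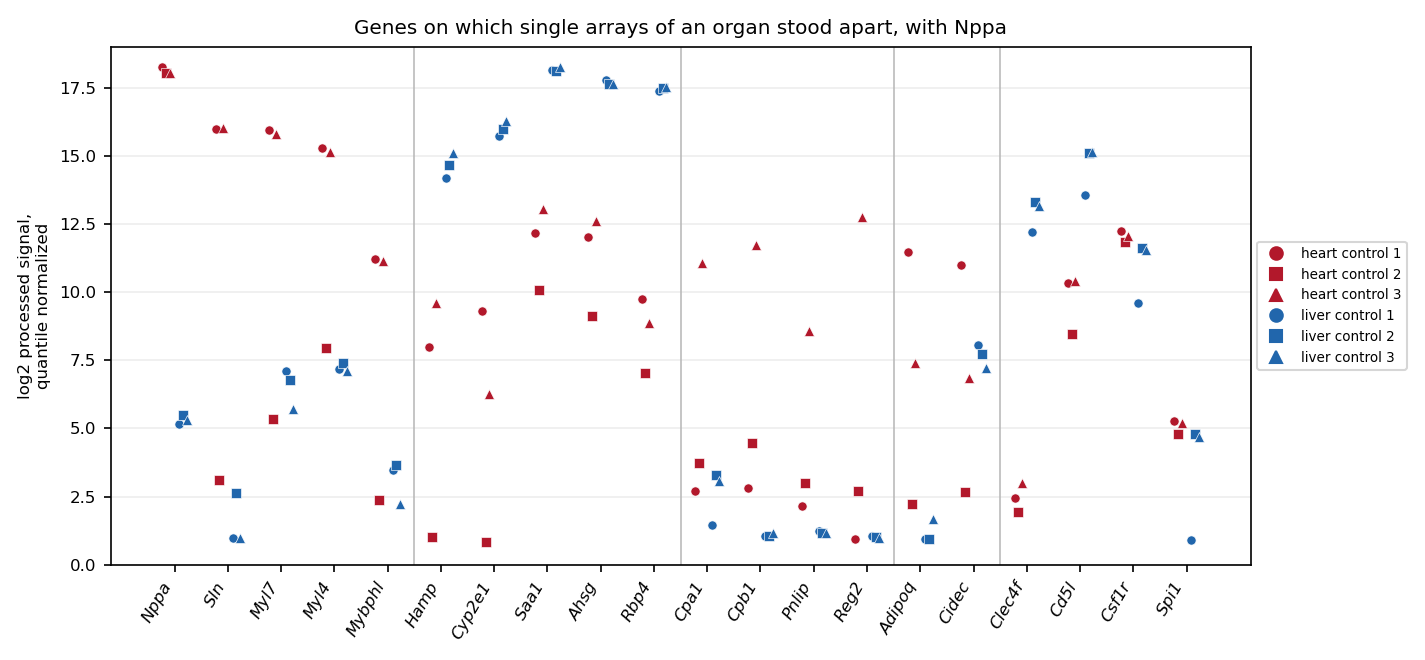
Level (log2 processed signal, quantile normalized) on each of the 6 arrays of atrial genes with Nppa, of liver genes, of pancreatic genes, of fat genes and of macrophage genes, in that order from left to right and parted by grey lines. Heart control 2 (red square) lies below the other hearts for the liver genes and for the atrial genes other than Nppa, heart control 3 (red triangle) above them for pancreatic genes, and liver control 1 (blue circle) below the other livers for the macrophage genes.

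Blood and handling were read from 4 further lists. Haemoglobin genes, which reflect red cells left in the tissue, were higher in heart, with Hba-a1 at 16.89, 16.60 and 17.32 in the heart controls and 14.20, 13.09 and 11.92 in the liver controls (3.87 ± 0.60 (SE), limma adjusted p = 0.00407) and Hbb-bt at 3.41, while the haem synthesis gene Alas2 was higher in liver by -1.09, a call lost with slide as a random block and without heart control 1, heart control 2, liver control 1 or liver control 2. Haemoglobin chains have near-identical copies, so single members are uncertain. Of 14 early response and stress genes, 8 were called higher in heart and 1 higher in liver, with a median of 1.60. The inducible heat shock gene Hspa1a was at 12.12, 12.44 and 11.35 in the heart controls and 5.53, 6.71 and 7.03 in the liver controls (5.55 ± 0.49 (SE), limma adjusted p = 0.000541) and the stress factor Atf3 differed by 4.41, whereas the immediate early genes Egr1 and Junb were not called, at -0.10 ± 0.27 (SE) and 0.00 ± 0.28 (SE) (limma adjusted p = 0.769 and 0.996). Of 11 interferon-induced genes, 5 were called higher in heart and 1 higher in liver, Gbp2 and Cxcl10 leading at 2.52 and 2.34.

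Genes that every cell uses gave the scale for small differences. Of 18 measured, 8 were called higher in heart and 4 higher in liver, with a median of 0.54 and a range from -1.65 (Actb) to 1.35 (Tfrc). Gapdh was at 15.93, 15.91 and 15.78 in the heart controls and 14.59, 15.38 and 15.07 in the liver controls (0.86 ± 0.22 (SE), limma adjusted p = 0.0254, and -0.04 with 75th percentile scaling) and Rplp0 at 17.07, 16.94 and 16.97 in the heart controls and 16.72, 16.85 and 16.75 in the liver controls (0.22 ± 0.11 (SE), limma adjusted p = 0.145). With 75th percentile scaling 1 was called higher in heart and 8 higher in liver, so that differences of about this size have a direction that the scaling sets. Without heart control 1 the counts were 5 and 4, and without heart control 3, with slide as a random block or with the replicate number as a block they were 4 and 4.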

How the data were processed

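Total RNA of each sample had been extracted with ISOGEN, labelled with Cy3 and hybridised to 1 single-colour Agilent array. The authors deposited for each of 43379 spots a processed signal, that is a linear intensity after background subtraction by Agilent Feature Extraction 10.5.1.1 and without normalization between arrays, together with the median intensity of the spot and of its background. The deposited marks (other) for outliers, saturation and signals well above background were used as well. Precision is limited by the 3 arrays per organ.

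Between 70 and 113 outlier spots per array were dropped, and 0 spots were saturated. Repeated spots were averaged on the log2 scale, and quantile normalization was then run over these 6 arrays, after the study's methods. The test covered the 41023 of 41174 probes measured on every array, by limma 3.58.1 in R 4.3.3 (lmFit and eBayes, two-sided, no covariates, organ as the only term), adjusted by Benjamini-Hochberg over all probes at 0.05. Probes were named through accessions in a RefSeq table of GRCm38.p6, used for names only (26690 probes, 64.8%, 18217 symbols), and a gene was read on its brightest probe. Of 6452 named genes with several probes, 269 had probes called both ways.

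Of 648 genes on 42 lists, 620 were measured. Another 24 had no probe with a RefSeq match and 4 (Cfd, F2, Fbp1 and Igfals) had an outlier spot. The lists, pairs, tests and naming rule were chosen with earlier results of these data known. Named are defining markers, the leading and the opposing members of each list, every pair, and the 10 called genes with the largest difference in either direction. Some genes that this rule names are not reported here, though the counts hold them. Genes said to be picked after their values were seen are outside that rule. The fit was run on simulated data in which few probes changed, alike in both directions. Far more genes differed between these organs, so that run does not test the normalization across them. Figures were drawn with matplotlib 3.10.9. Samples were not paired in the main fit: deviations of same-numbered samples from their organ's mean correlated at 0.04, -0.06 and 0.09. Alternatives were another scaling, background correction, filter, prior, probe rule or test, blocks for replicate or slide, and leaving out each array. Leaving dim members out of list medians was added after the data were seen.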

Additional observations from a re-analysis of the deposited data

How the results depend on the processing

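Of the 538 named or listed genes called, 5 changed direction under an alternative, all with 75th percentile scaling: Atp5b (-0.53), Blk (-0.74), Cox4i1 (-0.065), Gapdh (-0.0369) and Rps18 (-0.71), as log2 differences. That scaling gave 16749 genes higher in liver and 2699 at least 8-fold higher in liver. The normexp correction left 1575 genes with at least 8-fold (681 heart, 894 liver). The methods' SFC statistic called 1209 genes with Benjamini-Hochberg adjustment (509 heart, 700 liver) and 512 with Bonferroni (142 and 370), and the methods' t-test with Bonferroni 300 (92 and 208), beside 353 and 575 for limma with Bonferroni. By list, SFC called 0 of 30 respiratory chain genes higher in heart (limma 29), 0 of 15 macrophage genes (limma 11) and 0 of 16 T and NK cell genes (limma 10). It called 1 of 19 tricarboxylic acid cycle genes (limma 17) and 1 of 16 genes of any endothelium (limma 12). Of the sarcomere list both called 25 of 27, and of 33 plasma protein genes SFC called 30 higher in liver (limma 33). The cause was not tested. With the replicate number as a block, 13227 genes were called against 15608, and 11 pairs against 12. The numbers do not pair the samples. The isozyme count stayed between 11 and 16 under every alternative run, and 27 of 42 lists had a median above that of all genes under every alternative run for it. Leaving out 1 array gave 11975 to 16829 called genes, 3329 to 3724 with at least 8-fold and 11 to 13 pairs. With slide as a random block, 47 of the 538 genes lost their call and none changed direction. Since each slide held 1 organ only, that fit could hardly change a direction and cannot part slide from organ. The signal over background limits the low side, since 8828 genes were not well above background on any array.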
